A study of Mus musculus with 4 samples.

Results

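Cells with transcripts of Muc19 and A2ml1 were selected on measured UMIs, a UMI (unique molecular identifier) being the tag of 1 captured RNA molecule. A cell belonged to them when it held at least 3 Muc19 UMIs, when Muc19 and A2ml1 together reached 20 UMIs per 10000 of its UMIs, and when it had 0 UMIs of Ptprc, the pan-leukocyte gene. This rule took 395 of the 15707 cells (2.51%, exact Clopper-Pearson 95% interval 2.28 to 2.77%). The study set out to find which salivary gland cells make antimicrobial proteins. Single-cell suspensions came from the submandibular and sublingual glands of wild-type female C57BL/6N mice aged 6 to 8 weeks, untreated ("physiological status"), and were made into 10x Genomics 3′ libraries. The labels list 4 samples and 2 mice, and the published methods give a different number of animals. All samples lie pooled in 1 matrix with 1 barcode suffix and no barcode occurred more than once, so there was 1 sample, no comparison of glands or animals and no test. Intervals below are 95% intervals and cover counting error only.

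Mucous acinar cells are the mucin-secreting end pieces of the salivary glands, abundant in the sublingual gland and scarce in the mouse submandibular gland. Muc19 encodes the gel-forming mucin of these cells, a long protein whose repeats are covered with O-linked sugars in the Golgi, and A2ml1 encodes a broad protease inhibitor of the alpha-2-macroglobulin family. Serous acinar cells make watery, protein-rich saliva, and Dcpp1 to Dcpp3 encode demilune cell and parotid proteins.

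The members ranged widely in depth and in the level of the selecting genes. They held 1377 to 70551 UMIs (median 2777) and 196 to 3419 genes (median 580), at a median of 2.87% mitochondrial UMIs, against a median of 2608 UMIs and 689 genes over all cells. Muc19 ran from 3 to 694 UMIs per cell with a median of 10, and A2ml1 from 0 to 712 with a median of 12. The sum of both per 10000 UMIs, called the Muc19+A2ml1 level here, ran from 20.3 to 1586 with a median of 79.3. Of the members, 140 lay at 20 to under 50, 89 at 50 to under 100, 87 at 100 to under 400 and 79 at 400 or more.

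The last range, from 400 per 10000, is called the upper range. Its limit was chosen after the spread of levels had been seen, in a sparse stretch with 4 cells at 300 to under 400 and 8 at 400 to under 500. It is a range of a continuous measure and not a type. It held 20% of the members (16.2 to 24.3%) and 0.503% of all cells. Upper-range cells had a median of 4452 UMIs, 1490 genes, 231 Muc19 UMIs and 209 A2ml1 UMIs, and a median of 4.10% mitochondrial UMIs. These cells therefore carried several times the genes of the members at 20 to under 50, whose medians were 2502 UMIs and 459 genes.

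Members with little Muc19 and A2ml1 held many UMIs of other acinar products. The 8 serous products Mucl2, Prol1, Pip, Car6, Lpo, Scgb1b27, Scgb2b26 and Scgb2b27 took a median of 43.2% of the UMIs of a cell at 20 to under 50, 32.0% at 50 to under 100, 10.6% at 100 to under 400 and 4.80% in the upper range. Dcpp1 to Dcpp3 took medians of 20.4%, 24.7%, 25.8% and 0.595% in the same order. The median share of serous products thus fell over these ranges, though of summed UMIs they took 48.5%, 24.4%, 7.91% and 8.25%, whereas the medians of the Dcpp genes stayed high up to 400 and were low above it. Of all members, 175 (44.3%) had 20% or more of their UMIs on the Dcpp genes, which is the limit used below for Dcpp-rich cells, and 111 had 50% or more on serous products. Both classes stayed under 10% in 56 members, 49 of them in the upper range. In the upper range 7 cells reached 20% Dcpp UMIs and 67 stayed under 2%.

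**Figure D1:**
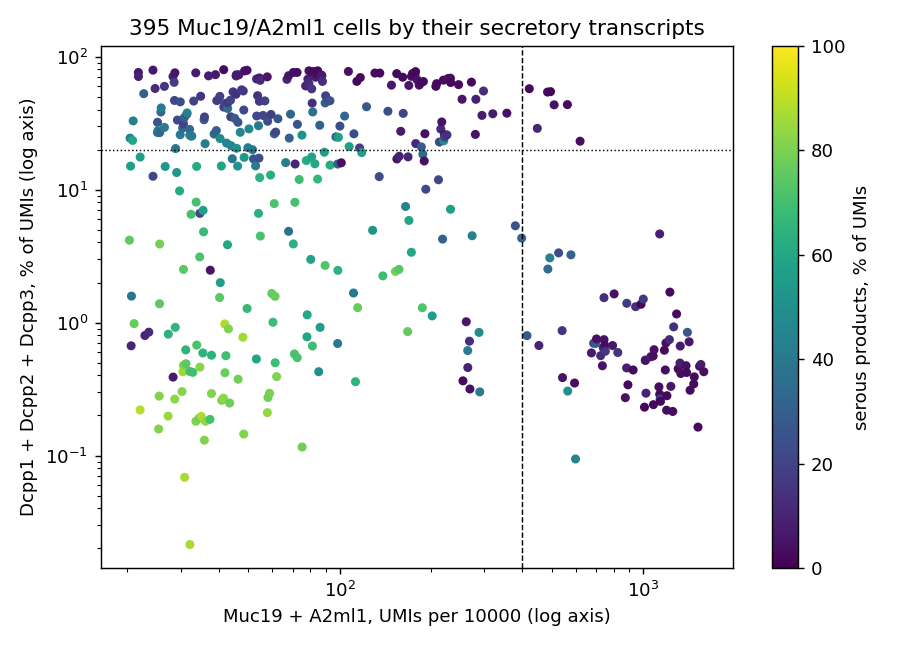
Each point is 1 of the 395 members, placed by its Muc19+A2ml1 level (x, UMIs per 10000, log axis) and its percent of UMIs on Dcpp1 to Dcpp3 (y, log axis), and coloured by the percent on serous products. The dashed line marks 400 per 10000 and the dotted line 20% Dcpp UMIs, and 67 of the 79 cells right of the dashed line lie under 2%.

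No doublet caller was run and no cell was removed as a doublet. Of the members, 44 exceeded 10000 UMIs, at a median of 65.0% Dcpp UMIs and a median level of 176, and 5 of these 44 were in the upper range. What share of the members came from droplets with 2 cells was not tested. Serous products made up 20.6% of the summed UMIs of all members, and 1.40% once the mean UMIs of each gene in an NK-like cell (at least 1 Ptprc and 3 Nkg7 UMIs) had been taken away as an estimate of free RNA. A few NK-like cells carried that mean, since serous products took 35.1% of their summed UMIs but a median of 8.82% in a cell, and with the median UMIs of each gene in place of the mean the share was 20.3%. The part of free RNA in these products therefore depended on the estimate.

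The values just inside and just outside the thresholds overlapped. The 10 members at 20 to under 22 per 10000 had medians of 43.8% serous and 19.2% Dcpp UMIs. The 10 cells at 18 to under 20 with at least 3 Muc19 UMIs had medians of 78.7% and 2.46%. The quartiles of the serous share were 17.1 and 59.0% inside and 29.7 and 85.6% outside. At the Muc19 threshold, 50 members had exactly 3 UMIs, with medians of 40.2% serous and 26.8% Dcpp UMIs. Another 61 cells reached the level with 2 Muc19 UMIs, at medians of 31.1% and 32.3%. The Ptprc condition alone left out 20 cells.

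The label of mucous acinar cells was checked with Galnt12, Spdef and Creb3l1, marker genes that the rule did not use. Galnt12 encodes an enzyme that puts the initial sugar on mucins, and Spdef and Creb3l1 encode transcription factors of mucus-secreting cells. In the upper range 76 of 79 cells (96.2%, 89.3 to 99.2%) had a UMI of at least 1 of them and 30 had all 3. Among members at 20 to under 50 it was 31 of 140 (22.1%, 15.6 to 29.9%) and none had all 3. The share was 38.9% in serous and 22.9% in Dcpp-rich cells, at unequal depth. In NK-like cells, which should lack these genes, it was 6.26%, at a median of 2107 UMIs.

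Single markers gave the same order. Creb3l1 was found in 17.1%, 33.7%, 57.5% and 89.9% of cells over the 4 ranges of the level from low to high, and in 3.76% of NK-like cells. Spdef was found in 8.57%, 14.6%, 44.8% and 70.9%, and in 1.61% of NK-like cells. Galnt12 was found in 0 of 140 cells at 20 to under 50, which allows up to 2.60%, and in 55.7% of the upper range, against 1.25% of NK-like cells. Every cell was then thinned to 1000 UMIs, a depth that no cell missed, and the upper range still had the highest shares. Creb3l1 was found in 10.1% at 50 to under 100 and 26.4% at 100 to under 400, and Spdef in 3.37% and 10.3%. Spdef rested on 3 cells in each of the 2 lowest ranges. Galnt12 was at 0% in both of these and in 3.45% at 100 to under 400. After thinning the upper range had Creb3l1 in 48.1% (36.7 to 59.6%), Spdef in 27.8% (18.3 to 39.1%) and Galnt12 in 16.5% (9.06 to 26.5%). Members at 20 to under 50 had 7.14%, 2.14% and 0% in that order, and serous cells, at a median of 5084 UMIs before thinning, 4.56%, 1.38% and 0.113%. Dcpp-rich cells had 4.21%, 1.37% and 0.201%, and the interval of the lowest members for Creb3l1, 3.48 to 12.7%, held the values of both groups. The order was not particular to these markers, since the water channel gene Aqp5 was found in 44.3%, 51.7%, 69.0% and 100% of cells over the same ranges before thinning. Thinning equalizes total UMIs only. Serous products took 87.9% of the summed UMIs of serous cells, and Dcpp genes 68.7% of those of Dcpp-rich cells. In the upper range they took 8.25% and 10.6%. The UMIs left for all other genes therefore still differed between these groups after thinning. With this limit, the mucous label fitted the upper range. The remaining members are called here by the rule, as Muc19/A2ml1 cells, since other acinar products took many of their UMIs.

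**Figure D2:**
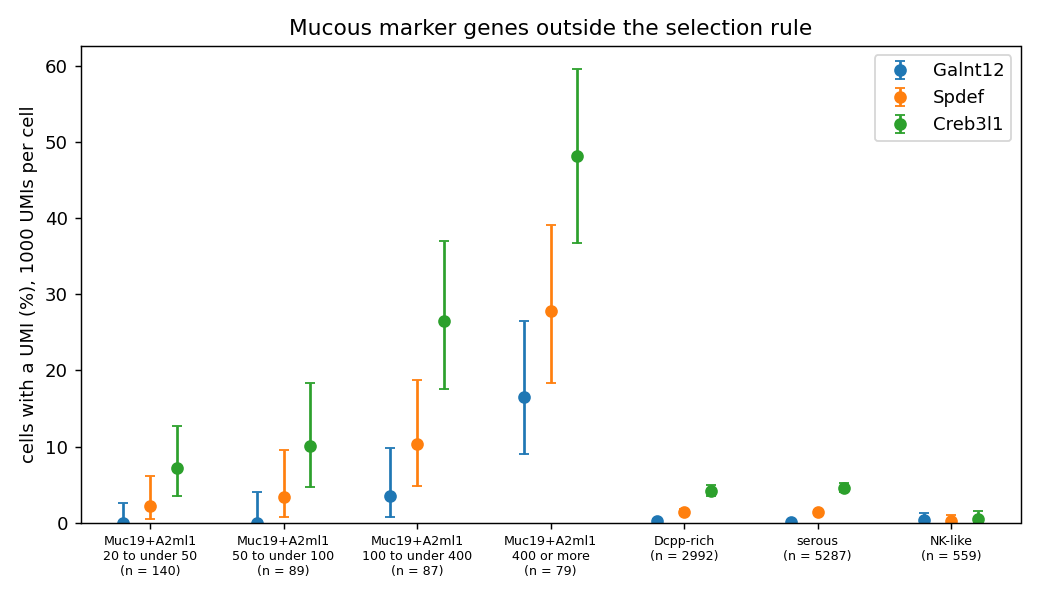
Share of cells with a UMI of Galnt12, Spdef or Creb3l1 (y, percent) after thinning to 1000 UMIs, in the 4 ranges of the Muc19+A2ml1 level and in 3 reference groups (x, with the number of cells). Points are shares and bars exact Clopper-Pearson 95% intervals, and Creb3l1 goes from 7.14% in the lowest range to 48.1% in the highest.

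The levels of the selecting genes are given as a description. A level is the UMIs of a gene summed over a group per 10000 UMIs of that group, with an exact Poisson interval. Muc19 stood at 467 (460 to 474) in the upper range and 123 in all members. It was 0.203 in the Dcpp-rich cells (2992 cells that were no member, with at least 2000 Dcpp UMIs per 10000) and 0.140 in the serous cells (5287 cells with at least 5000 UMIs per 10000 on Mucl2, Pip and 3 secretoglobins). A2ml1 stood at 452 (445 to 459) in the upper range, 124 in all members, 7.48 in Dcpp-rich and 0.208 in serous cells. Muc19 took close to an equal share of the sum of both genes in members at every level, with 49.1%, 42.7%, 49.6% and 50.8% over the 4 ranges. In NK-like cells it took 52.5%, but 1 cell held 77 of their 160 Muc19 UMIs. Over cells, Spearman's rho between the levels of Muc19 and A2ml1 was 0.843 in the 395 members and 0.609 in the upper range, as a description of cells of 1 matrix that were chosen on both genes.

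Dcpp-rich cells held 14803 A2ml1 and 402 Muc19 UMIs, so A2ml1 made up 97.4% (97.1 to 97.6%) of the pair. The rule had taken the cells with Muc19 out of this group, so the ratio is in part fixed by the selection, and in the 175 members with 20% or more Dcpp UMIs Muc19 took 47.7%. Of the Dcpp-rich cells, 737 (24.6%, 23.1 to 26.2%) had at least 3 A2ml1 UMIs and no Muc19 UMI, against 19 serous cells (0.359%) and 1 NK-like cell. A2ml1 was thus found without Muc19 in part of the Dcpp-rich cells.

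Muc19 lies at chr15:91838326-91934555 on the plus strand (GRCm38, GENCODE M21), and Smgc, which encodes the submandibular gland protein C of neonatal acinar and intercalated duct cells, at chr15:91838265-91861438 on the same strand. Their annotated exons overlap at chr15:91838326-91838420, at the 5′ end of both. Reads of a 3′ library come from transcript ends, which lie apart in this annotation, but how the counting divided the shared part is not given in the sources used here. Smgc stood at 27.0 (25.4 to 28.7) in the upper range, where 76 of 79 cells had a UMI, against 4.49 in Dcpp-rich, 3.09 in serous and 7.88 in NK-like cells. After thinning the shares were 84.8% in the upper range and 10.4% in NK-like cells. Smgc was thus found in most upper-range cells. The summed level of members at 20 to under 50 was 34.2, with a UMI in 70.0% of cells, and the highest member reached 1398 per 10000. In the upper range Smgc was 1.23-fold of Dcpp-rich cells relative to the median gene, and its level was far under the 1405 of the 260 Smgc-rich cells (at least 300 per 10000). A2ml1 lies at chr6:128539821-128581608 on the minus strand, Galnt12 at chr4:47091909-47123070 on the plus strand, Spdef at chr17:27714352-27728955 and Creb3l1 at chr2:91982328-92024502, both on the minus strand.

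Markers of non-epithelial cells had few UMIs in the upper range. The 9 lymphoid markers gave 2 UMIs over 79 cells, with Cd3e, Cd3d, Klrb1c, Ncr1, Cd79a and Trbc2 at 0, and Ptprc at 0 by the rule. The 6 fibroblast markers gave 1 UMI, the 5 plasma cell markers 2, and the 4 erythroid markers 0. The 8 myeloid markers gave 12 UMIs, led by H2-Aa with 5, and no cell had 2 or more. The 6 endothelial markers gave 8 UMIs, led by Flt1 with 4, and 2 cells had 2 or more. The 4 pericyte markers gave 19 UMIs, of which Rgs5 had 17, also with 2 cells at 2 or more, and Rgs5 was above the Dcpp-rich cells at 2.05-fold (1.14 to 3.47) relative to the median gene. The 3 Schwann cell markers gave 4 UMIs.

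Among markers of duct and of basal or myoepithelial cells, those of the granular duct had the most UMIs. The 17 granular duct genes summed to 20.5 per 10000 in the upper range, led by Klk1, the tissue kallikrein, with 689 of 798 UMIs, and 7 of them, Ren1 included, were at 0. This lay between the 60.8 per 10000 of NK-like cells and the 11.1 of fibroblast-like cells (at least 5 UMIs of Col1a1, Col3a1 and Dcn, with no Ptprc or Epcam), both of which should lack these genes. At least 2 such UMIs were found in 67.1% of upper-range, 44.2% of NK-like and 41.8% of fibroblast-like cells, at unequal depth. In serous and Dcpp-rich cells it was 91.9% and 83.2%, at levels of 15.9 and 26.7 per 10000. Basal or myoepithelial markers gave 24 UMIs with Krt5 and Trp63 at 0, striated or excretory duct markers 30 with Krt19 at 0, and Ascl3 and Foxi1 together 16. Over all members the lymphoid markers gave 104 UMIs, led by Ccl5 with 80, and the myeloid markers 345, and their part in the values of all members was not tested.

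The secretory content of the upper range was led by few transcripts. By summed UMIs the first genes were Mucl2, Dcpp3, Muc19, A2ml1, Wfdc12, Dcpp2, Dcpp1, Nupr1, Scgb1b27 and mt-Atp6. Mucl2, a serous mucin-like product, stood at 566 per 10000, against 5798 in serous and 2354 in NK-like cells, where the median cell had 613. Dcpp3 stood at 497, but its median over upper-range cells was 29.3 per 10000, and the 7 cells with 20% or more Dcpp UMIs carried most Dcpp UMIs of the range. Wfdc12, a secreted protein of the whey acidic protein family with antibacterial members, stood at 449 (442 to 456), against 5.76 in Dcpp-rich, 31.5 in serous and 13.4 in NK-like cells. All 79 upper-range cells had Wfdc12, from 46.2 to 1253 per 10000, also after thinning, when 34.7% of NK-like and 84.4% of serous cells had it. Nupr1, a small stress-inducible chromatin protein, stood at 114 (111 to 117), against 2.71 in Dcpp-rich, 3.05 in serous and 20.8 in the remaining epithelial cells. Wfdc12 and Nupr1 were thus at high levels beside the genes that chose the cells. Cytosolic ribosomal protein genes took 12.9% of the UMIs of the upper range, 5.50% in all members, 2.06% in Dcpp-rich and 2.22% in serous cells, but also 18.5% in Smgc-rich, 10.9% in the remaining epithelial, 19.4% in NK-like and 9.44% in fibroblast-like cells.

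Genes were also ranked by the fold of their level in all members over the highest of 4 other epithelial groups (serous, Dcpp-rich, Smgc-rich and remaining epithelial cells). Of 1104 genes with at least 100 UMIs in members and a UMI in at least 10% of them, 138 were not below that group. The 44 members over 10000 UMIs held 1282790 of the 2392868 UMIs of all members, so these levels and the ranking lean on them. The 20 with the largest fold were Muc19, Gal, Syt7, Cgref1, A2ml1, Sel1l3, Isg20, Sirpa, Mfsd4a, Fgl2, Dnajc10, Meg3, Kdelr3, Gfpt1, Tcea3, Creb3l1, B3gnt6, Casc4, Wfdc12 and Ccl28. They were picked for their size, so the values describe these cells.

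Gal encodes galanin, a neuropeptide. It stood at 2.85 (2.35 to 3.43) in the upper range against 0.00769 in the remaining epithelial cells, the highest other epithelial group, and 58.2% of upper-range cells but 0 of 559 NK-like cells had a UMI. After thinning it was found in 29.1% (19.4 to 40.4%) of the upper range and in 0.0189% of serous cells. Syt7, a synaptotagmin that senses calcium in exocytosis, stood at 1.72 (1.33 to 2.19) against 0.00673 in the remaining epithelial cells, and was found in 60.8% of the upper range and in 0 of 559 NK-like cells. Both genes were ranked for a high fold over the other epithelial groups, so their low levels there follow from that choice. Cgref1, a secreted calcium-binding protein, stood at 5.75 in the upper range and 0.0367 in serous cells. Sel1l3 stood at 4.39 and at 0.0696 in Smgc-rich cells.

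Some of these genes were also found outside the epithelium. Meg3, a maternally expressed non-coding RNA, stood at 1.85 in the upper range and at 3.59 in fibroblast-like cells. Fgl2, a fibrinogen-like protein, stood at 2.70 in the upper range and 1.42 in fibroblast-like cells. Isg20, an RNA exonuclease induced by interferon, stood at 3.06, against 0.436 in NK-like cells and 0.0596 in the remaining epithelial cells. For Meg3 the upper range was therefore high among epithelial cells but not among all groups.

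**Figure D3:**
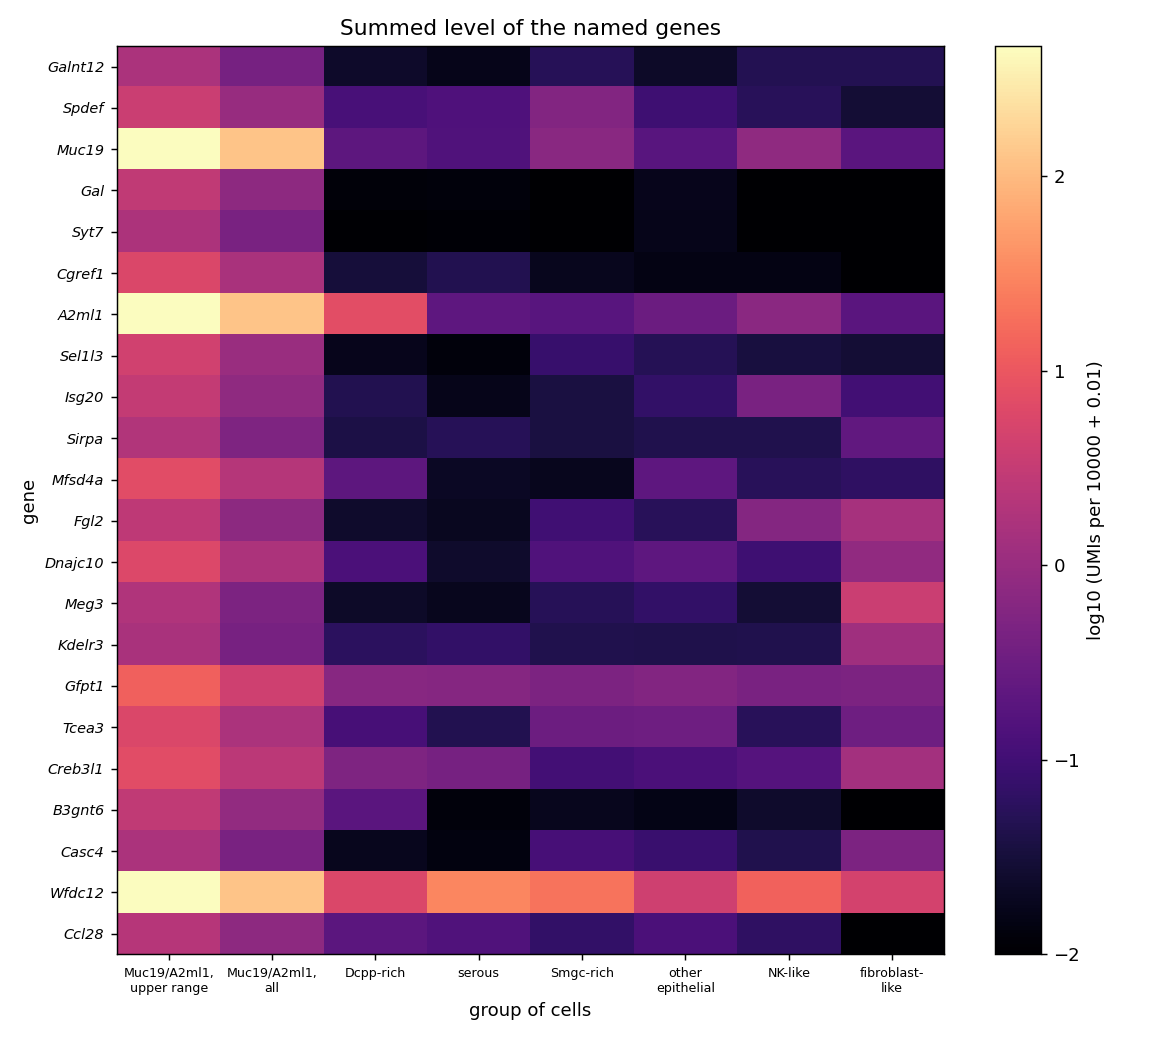
Level of 22 genes (y) in 8 groups of cells (x), as the log10 of summed UMIs per 10000 plus 0.01, with lighter colours for higher levels. The genes are the 20 with the largest fold, with Galnt12 and Spdef, and Muc19 goes from 467 in the upper range to 0.140 in serous cells.

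Listed genes were then compared with serous and Dcpp-rich cells. Serous products took 87.9% of the summed UMIs of serous cells, and the Dcpp genes 68.7% of those of Dcpp-rich cells. Each ratio of levels was divided by the median ratio over all genes tested. On the log2 scale this median was 2.61 for the upper range against serous cells and 2.29 against Dcpp-rich cells (1.61 and 1.26 for all members). Why most ratios were above 1 was not tested. A gene was called higher at a fold of at least 2 with an exact conditional binomial interval above 1, and lower likewise at 0.5. Genes with at least 50 UMIs over both groups were tested, and genes that define a group were left out. A gene scarce in 1 group could thus be tested only through its UMIs in the other. In the upper range 733 of 9330 genes (7.86%) were higher and 524 (5.62%) lower than in serous cells, and 463 of 6264 (7.39%) higher and 599 (9.56%) lower than in Dcpp-rich cells. In all members 498 of 9491 genes (5.25%) were higher and 449 (4.73%) lower than in serous cells, and 239 of 6841 (3.49%) higher and 250 (3.65%) lower than in Dcpp-rich cells. Both comparisons of the upper range share its cells, so calls in both are not independent. Of the 6220 genes tested in both, 307 were higher in both and 315 lower in both. Without the division by the median, 99.8% and 99.2% of the calls of the upper range were higher, against 58.3% and 43.6% with it, so "lower" below means lower than the median gene. Folds below are relative to the median gene, and no call is a test, since there was 1 sample.

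Enzymes that build mucin O-glycans were often higher. Of the 46 listed genes, 5 of 19 tested were higher in the upper range than in serous cells and none lower (background 7.86% and 5.62%), and 9 of 18 were higher and 3 lower than in Dcpp-rich cells (7.39% and 9.56%). The median fold of the list was 1.88 and 2.00, where the median of all genes is 1. The same background shares apply to the upper range in every list below. Counts in all members compare with 5.25% higher and 4.73% lower against serous cells, and 3.49% and 3.65% against Dcpp-rich cells. Galnt12 was 38.3-fold higher than in serous cells (26.4 to 55.8) and 24.1-fold higher than in Dcpp-rich cells (15.2 to 38.9). Galnt4, another enzyme of the initial step, was 40.2-fold (26.7 to 60.7) and 25.2-fold higher (15.3 to 43.0). Galnt7, which adds sugars to partly glycosylated mucins, was 4.15-fold and 5.39-fold higher. Galnt7 was called higher against both groups, and Galnt2 was as well, at 5.10-fold and 2.19-fold from 15 UMIs. Galnt12, Galnt4 and Galnt11, which are among the 9 called against Dcpp-rich cells, had 28, 23 and 43 UMIs in those cells. They reached the minimum of 50 in that comparison only through the upper range, so their calls there are in part fixed by the filter. Galnt4 also had fewer than 50 UMIs in serous cells, so the same holds for its call against serous cells.

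B3gnt6, which makes the core 3 O-glycan, stood at 2.85 in the upper range, at 0.186 in Dcpp-rich cells and at 0.00243 in serous cells, so its fold was 193 against serous (118 to 332) and 3.12 against Dcpp-rich cells (2.50 to 3.86). Against serous cells B3gnt6 reached the UMI minimum only through the upper range, so that call is in part fixed by the filter. St3gal4 and B4galt1, a sialyl- and a galactosyltransferase, were higher against Dcpp-rich cells alone, and for neither was the difference between the comparisons tested. St3gal1 was not called against serous cells at a fold of 1.90. Gcnt3, which makes core 2 and core 4 branches, had 1 UMI in the upper range. Galnt1 had 0 UMIs there, against 69 in Dcpp-rich cells. In all members 7 of 20 tested were higher and none lower than in serous cells. B3gnt6 and Galnt4 are among these 7 and reached the UMI minimum against serous cells only through the members. Against Dcpp-rich cells 6 of 18 were higher and 1 lower. Galnt12 and Galnt4 are among these 6, with 28 and 23 UMIs in Dcpp-rich cells. Both reached the UMI minimum only through the members.

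Of 34 genes of sugar nucleotide synthesis, transport and sulfation in the matrix, 8 of 24 tested were higher than in serous cells (background 7.86%). Against Dcpp-rich cells 9 of 21 were higher (7.39%), and none was lower in either comparison. Nanp, among these 9, had 10 UMIs in the upper range and 42 in Dcpp-rich cells. It reached the UMI minimum there only through the upper range, so its call is in part fixed by the filter. Gfpt1, the rate-limiting enzyme of the hexosamine pathway, stood at 12.8 (11.7 to 13.9) and was 3.37-fold (3.06 to 3.69) and 4.10-fold higher (3.69 to 4.55). It was found in 70.9% of upper-range cells after thinning, against 6.54% of serous and 2.86% of NK-like cells. Gnpnat1, the enzyme after Gfpt1 on the way to UDP-GlcNAc, was 3.29-fold and 3.67-fold higher. Slc35a1, the transporter that brings CMP-sialic acid into the Golgi, was 5.12-fold (4.02 to 6.46) and 11.8-fold higher (8.50 to 16.3). Enzymes of the pathway and a transporter were thus called against both groups. In all members 5 of 24 tested and 7 of 22 tested were higher, with none lower. Among these 7, Slc35c1 had 23 UMIs in Dcpp-rich cells and reached the UMI minimum only through the members.

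Among mucins and their partners, Muc19 was the mucin with UMIs in number. Muc5b, Muc5ac, Tff2 and Bpifb9a had 0 UMIs in every group, which allows a share of up to 4.56% of upper-range cells with a UMI. Muc1, the membrane mucin, had 0 UMIs in the upper range. Of 26 listed genes, 2 of 3 tested were higher and 1 lower than in serous cells, and 2 of 4 higher and 1 lower than in Dcpp-rich cells. The higher ones were Galnt12 and Agr2, and Prol1, a serous mucin-like product, was lower in both. Galnt12 is also in the list of O-glycan enzymes, and against Dcpp-rich cells it reached the UMI minimum only through the upper range. Agr2 encodes a disulfide isomerase needed for mucin folding, and was 2.77-fold (2.19 to 3.46) and 2.93-fold higher (2.27 to 3.73). In all members 1 of 4 was higher and 1 lower than in serous cells, and 3 of 4 higher than in Dcpp-rich cells. Galnt12 is among these 3 and reached the UMI minimum only through the members.

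Transcription factors of secretory cells went both ways. Of 36 listed, 5 of 30 tested were higher and 7 lower than in serous cells (background 7.86% and 5.62%), and 4 of 30 higher and 8 lower than in Dcpp-rich cells (7.39% and 9.56%), with median folds of 1.17 and 0.866. Spdef stood at 3.57 (3.00 to 4.21), 4.36-fold and 6.61-fold higher. Creb3l1 stood at 7.11 (6.30 to 8.00), 2.96-fold and 2.88-fold higher, and at 1.31 in fibroblast-like cells. Creb3l4, of the same family of membrane-bound factors, was 9.33-fold (7.16 to 12.0) and 6.32-fold higher (4.70 to 8.43). Foxa1, a forkhead factor of endodermal and glandular epithelia, was 6.95-fold and 6.57-fold higher, though its level of 1.64 compares with 0.618 in Smgc-rich cells. These 4 factors were called higher against both groups.

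The lower factors were Barx2, Elf5, Sox10, Id3 and Creb3l2 in both comparisons. Barx2, a homeobox factor of the acinar lineage, stood at 0.180 in the upper range against 0.169 in serous and 0.173 in Dcpp-rich cells, so it was lower by fold (0.175 and 0.212) but not by its level per 10000. Elf5 likewise had folds of 0.191 and 0.232, with a level of 0.283 against 0.243 in serous and 0.248 in Dcpp-rich cells. Sox10, a regulator of acinar and neural crest cells, had 2 UMIs and folds of 0.103 (0.0124 to 0.373) and 0.171 (0.0205 to 0.632). Bhlha15 (Mist1), a factor of serous and zymogenic cells, was lower than in serous cells at a fold of 0.382 (0.253 to 0.554) while its level was 0.719 against 0.309. Xbp1, the main factor of secretory capacity, had folds of 1.91 and 0.888 and was not called. In all members 6 of 31 tested were higher and 5 lower than in serous cells, and 4 of 30 higher and 2 lower than in Dcpp-rich cells. Sox2 was among the higher in all members against serous cells, with levels of 0.259 in all members, 0.159 in Dcpp-rich and 0.00243 in serous cells. Against serous cells Sox2 reached the UMI minimum only through the members, so that call is in part fixed by the filter.

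Of 94 genes of the endoplasmic reticulum (ER) and its export, 17 of 93 tested were higher and 3 lower than in serous cells (background 7.86% and 5.62%), and 16 of 92 higher and 6 lower than in Dcpp-rich cells (7.39% and 9.56%). Lman1l, a relative of the cargo lectin ERGIC-53, stood at 8.99 (8.07 to 9.98) against 0.0315 in serous and 0.0111 in Dcpp-rich cells, with folds of 47.0 (39.8 to 55.5) and 165 (107 to 267). It was found in 62.0% of upper-range cells after thinning and in 0.179% of NK-like cells. Lman1l was among the serous acinar markers used here, but its level was far higher in the upper range than in serous cells.

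Dnajc10, an ER reductase that opens disulfide bonds of misfolded proteins, stood at 6.16 against 0.0142 in serous and 0.120 in Dcpp-rich cells, with folds of 71.4 (56.7 to 90.2) and 10.5 (8.73 to 12.6). Pdia5, a disulfide isomerase, was 21.3-fold and 13.1-fold higher from 29 UMIs. Pdia5 and Lman1l, both among the 16 called higher against Dcpp-rich cells, had 23 and 22 UMIs in those cells. They reached the UMI minimum in that comparison only through the upper range, so their calls there are in part fixed by the filter. Sec23b, of the coat of vesicles that leave the ER, was 8.66-fold (7.41 to 10.1) and 5.84-fold higher (4.91 to 6.93). Kdelr3, a receptor that returns ER proteins from the Golgi, was 4.16-fold and 6.59-fold higher. Hspa5 (BiP), the main ER chaperone, was not called, at folds of 0.952 (0.804 to 1.12) and 0.914 (0.768 to 1.08). Derl3, of the machinery that removes misfolded proteins, was lower at folds of 0.0906 (0.0452 to 0.162) and 0.175 (0.0871 to 0.316). Its level of 0.283, from 11 UMIs, was also below the 0.512 of serous cells but near the 0.328 of Dcpp-rich cells. In all members 8 of 93 were higher and 3 lower than in serous cells (background 5.25% and 4.73%). Pdia5 is among these 8 and reached the UMI minimum against serous cells only through the members. Its 21.3-fold call in the upper range likewise met that minimum only through the upper range. Against Dcpp-rich cells 9 of 92 were higher and 2 lower (3.49% and 3.65%). Lman1l and Pdia5 are among these 9 and reached the UMI minimum only through the members.

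The unfolded protein response, the signalling that adjusts ER capacity, had 3 of 19 tested genes higher and none lower than in serous cells, and 3 of 16 higher and 2 lower than in Dcpp-rich cells. Creb3l1 and Creb3l4 made up 2 of the 3 in each case. The others were Ddit3 against serous cells and Eif2ak3, the kinase PERK, against Dcpp-rich cells. In all members those were 2 higher of 19, and 2 higher and 1 lower of 16. The list's median folds of 1.25 and 1.01 for the upper range lay near 1.

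Serous products were low in the upper range. Of 16 listed, 5 define the serous group, and of the 6 tested against it 2 were higher and 3 lower, whereas all 10 tested against Dcpp-rich cells were lower. Car6, a secreted carbonic anhydrase, had folds of 0.0155 against serous and 0.115 against Dcpp-rich cells. Prol1 had folds of 0.0157 and 0.106. Lpo, the salivary peroxidase, had 2 UMIs in 79 cells, with folds of 0.00719 (0.000870 to 0.0260) and 0.0441 (0.00533 to 0.160). All 3 were lower by level per 10000 too. The higher ones were Gstt1 and Wfdc18. In all members 1 of 6 was higher and 4 lower than in serous cells, and none of 11 was higher and 2 lower than in Dcpp-rich cells.

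Among 19 demilune and other salivary products, 2 of 8 tested were higher and 4 lower than in serous cells, and 1 of 9 higher and 5 lower than in Dcpp-rich cells. Wfdc12 was the one higher in both, at 2.35-fold (2.31 to 2.38) and 15.9-fold (15.5 to 16.3). Bpifa2, a bactericidal/permeability-increasing-like salivary protein, was 2.41-fold higher than in serous cells but 0.0338-fold of Dcpp-rich cells. Leaving out the 7 upper-range cells with 20% or more Dcpp UMIs, which was decided once the values were known, moved its fold against serous cells to 0.106 (0.0790 to 0.140), and that of Wfdc18 from 2.74 to 1.22. The calls of Bpifa2 and Wfdc18 thus rested on 7 cells. Of the other listed or ranked genes called in the upper range, most kept their call in the 72 remaining cells, so that in all 89 of 94 calls against serous and 102 of 105 against Dcpp-rich cells were kept. Vamp3, Pgm3 and Sec23a lost theirs against serous cells as their interval came to include 1, while their folds stayed close, at 2.13 and 2.01, 2.16 and 2.04, and 3.09 and 3.04 with and without the 7 cells. In all members 1 of 8 was higher and 2 lower, and 2 of 9 higher and 4 lower.

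Defence and IgA transport genes had 6 of 17 tested higher and 3 lower than in serous cells (background 7.86% and 5.62%), and 3 of 12 higher and 6 lower than in Dcpp-rich cells (7.39% and 9.56%). Among those higher than in serous cells was Bpifa2, which turned lower without the 7 Dcpp-laden cells. Serpinb11, an intracellular serpin, stood at 3.47 (2.91 to 4.10), 99.0-fold (70.2 to 142) and 15.7-fold higher (11.9 to 20.8), while Smgc-rich cells had 1.19. Ccl28, a mucosal chemokine that attracts IgA plasma cells, was 2.48-fold (1.96 to 3.10) and 2.27-fold higher (1.77 to 2.89). Pigr, the receptor that carries IgA across the epithelium, stood at 14.4 (13.2 to 15.6) and was 2.58-fold higher than in serous cells, but at 1.80-fold of Dcpp-rich cells it was not called. Its share after thinning was 67.1% in the upper range, 12.2% in Dcpp-rich, 8.55% in serous and 1.61% in NK-like cells. Pigr was thus found in most upper-range cells, whereas Ccl28 is described only by its folds, from 84 UMIs. Pglyrp1, a peptidoglycan recognition protein, stood at 10.1, between 0.214 in serous and 18.6 in Dcpp-rich cells, and kept a fold of 6.42 against serous cells without the 7 Dcpp-laden cells. In all members 3 of 17 were higher and 2 lower, and 2 of 12 higher and 3 lower. Serpinb11 is among these 3 and reached the UMI minimum against serous cells only through the members. Its 99.0-fold call in the upper range likewise met that minimum only through the upper range.

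Of 44 genes of fluid secretion and exocytosis, 2 of 38 tested were higher and 8 lower than in serous cells (background 7.86% and 5.62%), and 2 of 36 higher and 5 lower than in Dcpp-rich cells (7.39% and 9.56%). Aqp5, the apical water channel of acinar cells, was found in all 79 upper-range cells at a level of 14.4 (13.2 to 15.6), and in 72.2% after thinning against 3.22% of NK-like cells. Its folds of 1.18 and 1.78 were not called. Slc12a2, the basolateral chloride uptake carrier, and Atp1b1, of the sodium pump, had folds of 0.472 and 0.320 against serous cells, although their levels of 5.19 and 2.23 were above the 1.81 and 1.15 of serous cells. In all members 2 of 38 were higher and 3 lower than in serous cells, and none of 36 was called against Dcpp-rich cells.

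Junction and epithelial identity genes had 3 of 17 tested higher and 2 lower than in serous cells, and 2 of 16 higher and 2 lower than in Dcpp-rich cells. Cdh1 (E-cadherin) and Gjb2 (connexin 26) were higher in both, Gjb2 at 2.20-fold in each. Gjb1 (connexin 32) was lower than in serous cells at a fold of 0.399 (0.223 to 0.661), with a level of 0.385 against 0.159. In all members 1 of 17 was higher and 1 lower than in serous cells, and none of 16 was called against Dcpp-rich cells. Of 20 dissociation and stress genes, 1 was higher and 3 lower than in serous cells and 4 of 19 lower than in Dcpp-rich cells, with Fos at folds of 1.68 and 0.798, and in all members 3 were higher and 2 lower, and 1 lower. Of 16 cell division genes 9 and 3 could be tested, 1 of them, Stmn1, was lower in each, and in all members 2 and 1 were lower. Mki67 and Top2a, markers of cycling cells, had 0 UMIs in the upper range, which allows up to 4.56% of cells with a UMI.

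Promoters of the 20 ranked genes, Galnt12 and Spdef are described because these genes had high levels in the same cells. Of these 22 genes 14 matched the RefSeq promoter table (GRCm38.p6), with 18 promoters, of which 250 bases upstream of the start were searched on both strands. Muc19, Galnt12, Creb3l1, Syt7, Sel1l3, Sirpa, B3gnt6 and Casc4 had no entry. TGACGTGG, a core of elements bound by factors of the unfolded protein response, was in 2 of 18, those of Isg20 and Kdelr3, and in 0.563% of all 32851 promoters of the same length. ACGTG, which lies within it and within CACGTG, was in 7 of 18 against 16.6%. CACGTG was in 1 of 18 against 6.02%, CCGGAT, an ETS-type core, in 1 of 18 against 4.94%, and TATAAA in 2 of 18 against 12.4%. A match describes letters in these windows and says nothing of binding.

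The window of Isg20 is chr7:78913515-78913764 on the plus strand and that of Kdelr3 chr15:79516158-79516407 on the plus strand, both free of annotated GENCODE exons. That of A2ml1 is chr6:128581607-128581856 on the minus strand, of which 2 bases lie in an annotated exon, and it holds TATAAA at position -30. Capitals mark ACGTG or TGACGTGG on either strand.
Isg20: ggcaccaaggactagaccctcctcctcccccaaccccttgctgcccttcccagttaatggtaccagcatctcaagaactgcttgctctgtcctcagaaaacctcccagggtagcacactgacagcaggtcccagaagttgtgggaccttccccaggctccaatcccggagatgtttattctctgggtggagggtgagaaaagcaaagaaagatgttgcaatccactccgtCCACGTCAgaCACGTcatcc
Kdelr3: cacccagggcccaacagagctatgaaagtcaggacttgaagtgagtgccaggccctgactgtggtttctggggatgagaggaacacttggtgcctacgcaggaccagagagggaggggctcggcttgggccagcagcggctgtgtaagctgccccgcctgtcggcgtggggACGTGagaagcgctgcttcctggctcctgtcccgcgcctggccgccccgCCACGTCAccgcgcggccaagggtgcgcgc
A2ml1: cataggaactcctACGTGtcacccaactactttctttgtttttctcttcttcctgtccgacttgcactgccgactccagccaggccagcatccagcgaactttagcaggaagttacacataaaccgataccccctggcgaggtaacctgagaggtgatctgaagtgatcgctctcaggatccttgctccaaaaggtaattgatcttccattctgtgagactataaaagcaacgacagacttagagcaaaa
The TGACGTGG match begins at position -20 in Isg20 and -30 in Kdelr3, counted back from the start, and in both it lies on the minus strand.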

How the data were processed

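The scRNA-seq counts that the authors deposited were 1 matrix of raw UMI counts, made with Cell Ranger 6.0.1 against mm10 per the submitters' processing notes, which also name Seurat 4.1.1, and not normalized. The annotation is not given in the sources used here. All 15707 barcodes were kept and treated as 1 sample. Tools were scipy 1.17.1, numpy 2.4.6, matplotlib 3.10.9 and pandas 2.3.3 under Python 3.11.15. UMIs were summed per group. Levels carry exact Poisson and shares exact Clopper-Pearson 95% intervals. Thinning to 1000 UMIs used seed 7. Cells met the groups in the order Dcpp-rich, Smgc-rich, serous and other epithelial, the last with at least 2 UMIs of Epcam, Krt8 and Krt18. Folds were tested on simulated data. Named genes were the given markers, the 20 genes with the largest fold, the 10 most abundant and examples from 13 gene lists. For symbols found more than once, such as Ddit3, the first entry was used. Positions are from GENCODE M21 on GRCm38. Alternatives changed thresholds, filters on cells and genes, centring and weighting. The members and lists were chosen with earlier results of these data known.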

Additional observations from a re-analysis of the deposited data

How the results depend on the processing

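No paired analysis was possible because the 4 samples are pooled in 1 matrix and no result came from a test. The count of 395 members became 205 with at least 10 Muc19 UMIs, 235 when cells needed 500 genes and no more than 20% mitochondrial UMIs, 53 without cells that held 2 or more UMIs of any list of non-acinar markers, 220 without members at 20% Dcpp UMIs and 79 in the upper range. Most cells lost to the marker screen were lost through granular duct genes, since 273 were left without that list. The serous products, 20.6% of the summed UMIs of members, became 26.5% from a level of 10 per 10000, 14.8% from 40, 15.5% with at least 10 Muc19 UMIs, 15.2% with the filter on genes, 29.4% with the marker screen, 22.1% with the screen without granular duct genes, 42.3% without members at 20% Dcpp UMIs, 8.25% in the upper range and 1.40% after free RNA, estimated from the mean of NK-like cells, was taken away. With their median it was 20.3%, and a few NK-like cells carried the mean.

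The 498 genes higher in members than in serous cells became 7536 without centring and 192 with at least 200 UMIs a gene. The 239 higher than in Dcpp-rich cells became 381 with the marker screen, 463 in the upper range, 4811 without centring, 423 with at least 20 UMIs and 77 with at least 200. The 733 of the upper range against serous cells became 6879 without centring and 365 with at least 200 UMIs, and the 463 against Dcpp-rich cells became 5120, 699 with at least 20 UMIs and 136 with at least 200. The UMI minimum changes how many genes are tested, and for the other settings the cause was not tested. With the marker screen 71.1% of the calls of members against serous cells were higher, against 52.6% as reported, and 60.2% against 48.9% for Dcpp-rich cells. With every cell weighing the same, and no interval, it was 37.3% against serous cells. In the upper range it was 45.3% against serous cells with at least 200 UMIs a gene, where 58.3% is reported. Against Dcpp-rich cells it was 52.4% with at least 20 UMIs, where 43.6% is reported. For members against Dcpp-rich cells it was 54.1% with at least 20 UMIs and 55% with at least 200. For members against serous cells it was 45.0% with at least 200 UMIs and 49.8% with at least 10 Muc19 UMIs. Without centring it was 99.6% and 99.9% for members. Counts of members and of higher genes under the other settings stayed within 1.5 times the reported ones. Counts of lower genes moved further. The 449 lower in members than in serous cells became 211 with the marker screen, 235 with at least 200 UMIs a gene, 909 with every cell weighing the same and 27 without centring. The 250 lower than in Dcpp-rich cells became 405 with at least 10 Muc19 UMIs, 420 with the screen without granular duct genes, 389 without members at 20% Dcpp UMIs, 404 with every cell weighing the same, 599 in the upper range, 63 with at least 200 UMIs and 6 without centring. In the upper range the 524 against serous cells became 17 without centring, and the 599 against Dcpp-rich cells 41, or 225 with at least 200 UMIs. The levels of all 22 ranked or marker genes rose without the 10% of members with the most UMIs. As a ratio Ccl28 rose least, from 0.769 to 0.911 per 10000, and Meg3 most, from 0.472 to 0.764. All 22 shares fell on thinning. The upper range, its comparisons, the settings without cells at 20% Dcpp UMIs, the screen without granular duct genes and the median of NK-like cells were chosen after seeing the data.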
